A study of Sus scrofa with 4 samples.

Results

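The genes described here are the nuclear genes for the mitochondrial respiratory chain and the ATP synthase that could be named on a porcine oligonucleotide array. They were taken as every probe whose RefSeq accession belongs to a pig gene symbol that begins with NDUF, UQCR, COX4, COX5, COX6, COX7, COX8 or ATP5, or is CYC1, SDHA, SDHB, SDHC or SDHD. The rule found 27 genes with 99 probes, of 3020 genes with a named probe on the array. The gene table holds 78 symbols that fit the rule, so the other 51 had no named probe, and the table is not a full list of these families. Coverage was uneven, with 7 of 47 NDUF symbols, 2 of 4 SDH symbols, 2 of 2 UQCR and CYC1 symbols, 8 of 8 COX symbols and 8 of 17 ATP5 symbols. The subunits that the mitochondrial genome encodes had no named probe and were not analysed here.

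Thymus RNA of IL2RG knockout (KO) pigs and of wild type (WT) pigs was measured, with 2 samples for each genotype and 1 array for each sample. IL2RG encodes the common gamma chain shared by several interleukin receptors. The KO pigs were monoallelic (IL2RG+/- in the labels) and had been made by editing of donor cells with TALEN, a pair of designed nucleases, and by somatic cell nuclear transfer, so they are cloned animals. All 4 samples are from Minnesota miniature swine, no treatment is named, and the age of the animals on the arrays was not stated. Most KO pigs lacked a thymus, and the arrays came from KO pigs whose thymus was rudimentary, so the KO group stands only for such animals.

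The inner mitochondrial membrane carries 4 complexes that pass electrons from nutrients to oxygen and pump protons, and an ATP synthase, often called complex V, that lets the protons flow back to make ATP. Complex I takes electrons from NADH, complex II from succinate, complex III hands them to cytochrome c, and complex IV (cytochrome c oxidase) gives them to oxygen. Several small subunits of complex IV exist as isoforms, 1 made in most tissues and 1 made mainly in heart and skeletal muscle. Dividing thymocytes, muscle, brown fat and macrophages are all known to differ in how much they use this machinery.

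All levels below are log2 of the processed signal of a spot minus the 75th percentile of its array, so 0 is the brightness of the 75th percentile, and each level is relative to the other RNAs of that array. All differences are KO minus WT on this log2 scale, each gene stands by its brightest probe, and a gene was called at an adjusted p under 0.05 in limma, adjusted over all 31963 probes tested. More probes were well above background on the KO arrays (73.5% and 74.6%) than on the WT arrays (67.9% and 68.2%), and the median processed signal was also higher there, at 83.3 to 91.1 against 63.2 to 68.0. No array had saturated spots, and the number of arrays limits the precision. Each of the 2 slides held 1 array of each genotype, with KO replicate 1 beside WT replicate 2 on slide 1 and the other pair on slide 2. The labels do not say whether the replicates of a genotype are separate animals, so the p-values speak only of these samples. They do not rest on each gene's spread alone, since limma draws the variance of a probe towards a value shared by all probes. NDUFA4, for example, had standard deviations of 0.012 in KO and 0.009 in WT but an SE of 0.15. With 2 against 2 arrays an exact permutation test cannot give a two-sided p below 0.333.

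The targeted gene went with its labels. IL2RG was at -3.14 and -3.27 on the KO arrays and at -0.12 and 0.53 on the WT arrays, a difference of -3.41 (SE 0.27, adjusted p = 0.0026 in limma), or 10.6-fold lower. Cell type markers also differed. All 13 thymocyte markers tested were lower in KO, and their summed linear signal, in units of each array's 75th percentile, was 31.2 to 31.9 on the KO arrays and 231 to 341 on the WT arrays. All 7 markers of proliferating cells were lower (14.5 to 15.9 against 80.5 to 81.3), all 11 macrophage markers were higher (342 to 434 against 66.5 to 93.6), 4 of 4 fibroblast markers and 5 of 6 endothelial markers were higher, as were 3 of 4 of thymic epithelium, while 1 of 4 B cell markers was higher and 3 were lower. The part of these shifts in the results below was not tested. In bulk tissue, fewer cells of a type and less RNA per cell cannot be told apart.

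Most respiratory chain genes differed little between KO and WT thymus. Of the 27 genes, 2 were called higher in KO, COX7A1 and NDUFA4, both of complex IV. Another 6 were called lower, namely COX7A2 and NDUFA4L2 of complex IV, NDUFC1 of complex I, and ATP5J2, ATP5L and ATP5O of complex V. The remaining 19 were not called. COX7A1 was the only member called with a change of at least 2-fold, and no member was called lower at that size. Over all 2702 named genes tested, 30.0% were called higher and 22.7% lower, and with at least 2-fold 25.2% were higher and 12.5% lower. Of the 98 member probes tested, 3 were called higher and 23 lower, where 25.4% of all probes were called higher and 22.6% lower. At this scaling, the share called lower among the members was thus close to that of the array. The shares called higher, and called at 2-fold or more, were smaller.

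The sizes show the same. The median of the absolute difference was 0.32 over the members and 0.76 over all named genes. The median signed difference was -0.30 over the members, with 22 of 27 below 0, beside 0.00 over all named genes. The size of this lean depended on the scaling. With quantile normalization the median was -0.12, with 16 of 27 below 0, beside 0.01 over all named genes. In the log2 table that the authors deposited it was -0.10, with 15 of 26 below 0, beside -0.003. With each array scaled to its median it was -0.56, with 25 of 27 below 0, beside -0.26. The replicates of a genotype lay close together, with a median gap of 0.10 between the KO arrays and 0.11 between the WT arrays. Over all named genes these gaps were 0.15 and 0.27. The members were also brighter, with median levels of 5.09 to 5.41 on the arrays beside 0.13 to 0.48 over all named genes. Their gaps and sizes are thus set against those of dimmer genes. For 22 of the 27 genes both KO values lay on one side of both WT values, as they did for 83.7% of all named genes. SDHB, UQCRB, COX7C, ATP5E and ATP5I were the exceptions, with overlapping values. The number of genes called lower depended on how the arrays were scaled. With each array scaled to its median, the median of all probes moved from -0.05 to -0.32. Then 1 member was called higher and 13 lower, beside 25.4% higher and 34.3% lower over the named genes. With quantile normalization 2 members were higher and 3 lower, beside 29.8% higher and 22.2% lower over the named genes. The share called lower among the members was thus above that of the array with the first scaling and below it with the other.

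**Figure D1:**
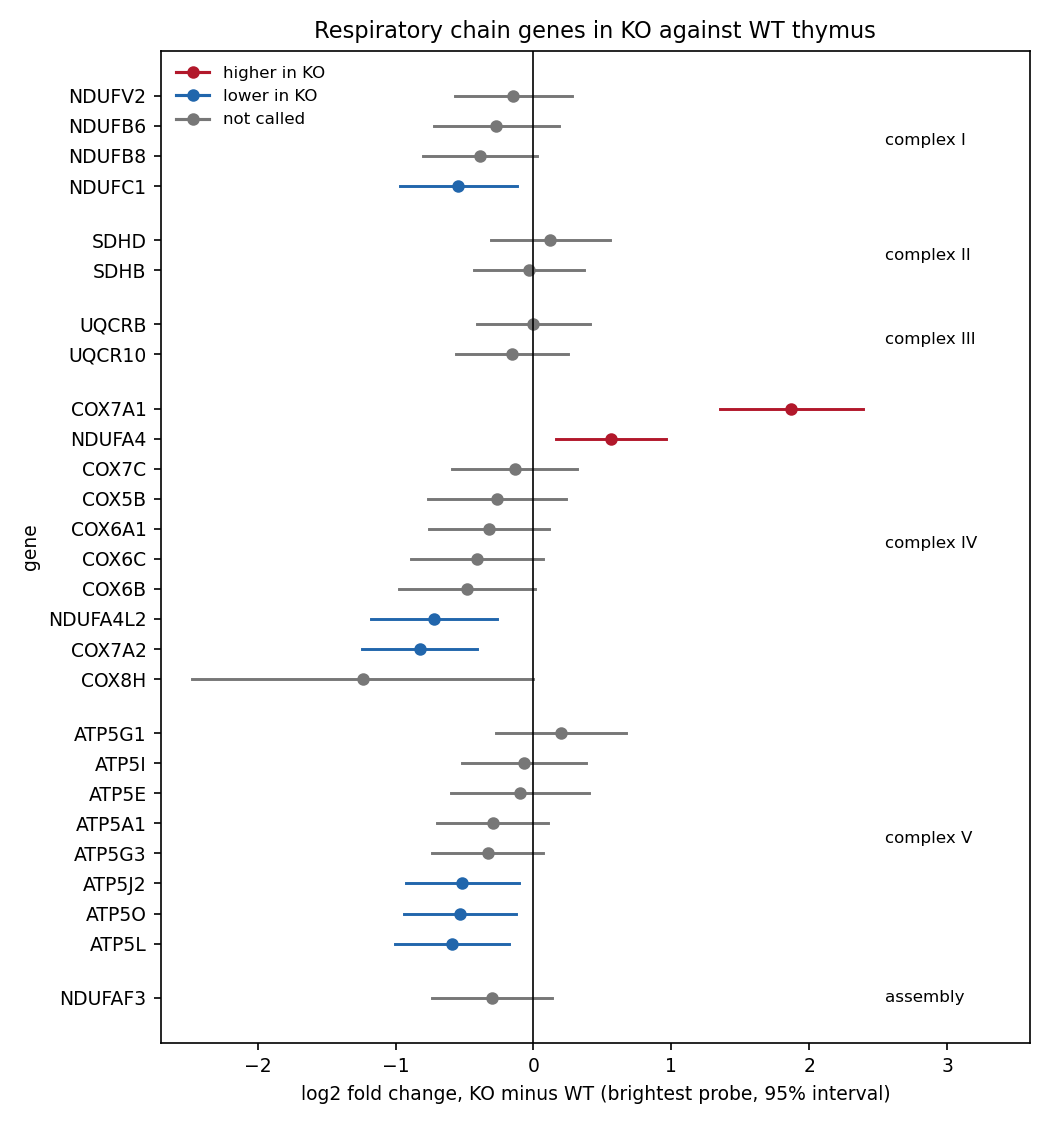
Difference between KO and WT thymus (log2, KO minus WT, x axis) of the brightest probe of each of the 27 genes (y axis), ordered by complex. Points are limma estimates from 2 KO and 2 WT arrays, lines are 95% confidence intervals and colours give the call. COX7A1 stands alone at 1.87, while most other genes lie between -0.59 and 0.20.

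Complex IV held the widest range, with 10 genes between -1.24 and 1.87. It is built around subunits encoded in the mitochondrion, and the nuclear genes measured here add the surrounding small subunits. COX7A1 encodes the isoform of subunit 7A known from heart and skeletal muscle. It was at 3.96 and 3.97 on the KO arrays and at 2.28 and 1.91 on the WT arrays. Both KO values lay far above both WT values and within 0.01 of each other. The difference of 1.87 (SE 0.19, 95% interval 1.35 to 2.39, adjusted p = 0.0040 in limma) is 3.65-fold, and it was 2.05 within slide 1 and 1.69 within slide 2. The gene has 1 probe.

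COX7A2 encodes the isoform of the same subunit that most tissues make. It was at 5.59 and 5.70 on the KO arrays and at 6.51 and 6.43 on the WT arrays. The groups did not overlap, in the direction opposite to COX7A1. The difference was -0.83 (SE 0.16, adjusted p = 0.016 in limma), 1.77-fold lower in KO, and all 5 probes of the gene were called lower, between -0.89 and -0.81.

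Taking the 2 isoforms together removes the scaling of the array, since both were measured on the same array. COX7A1 minus COX7A2 was -1.63 and -1.73 on the KO arrays and -4.23 and -4.51 on the WT arrays, so the balance of the probes was shifted towards COX7A1 by 2.69, or 6.47-fold, in KO. The levels of different probes cannot be set against each other, so only this shift has a meaning, and not which isoform was the more abundant. For all 4 pairs of related members compared in this way, an exact permutation test gave two-sided p = 0.333 (adjusted p = 0.333 over the 4 pairs). That is the smallest p possible here, so the test could not tell a large shift from a small one. SDHD minus SDHB, shifted by 0.15, had the same p.

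NDUFA4 was first described as a subunit of complex I and is now placed in complex IV, and NDUFA4L2 is its paralog, known as a gene induced by low oxygen. NDUFA4 was at 6.05 and 6.07 on the KO arrays and at 5.50 and 5.49 on the WT arrays. NDUFA4L2 was at -0.82 and -0.69 in KO and at 0.06 and -0.13 in WT. The paralogs thus moved in opposite directions. NDUFA4 rose by 0.56 (SE 0.15, adjusted p = 0.038 in limma), 1.48-fold, and NDUFA4L2 was lower by 1.65-fold (-0.72, SE 0.17, adjusted p = 0.028 in limma). All 6 probes of NDUFA4 lay between 0.43 and 0.59 but only 2 of them were called, whereas both probes of NDUFA4L2 were called lower. With slide as a block NDUFA4 was no longer called (adjusted p = 0.052 in limma). Within arrays, NDUFA4 minus NDUFA4L2 was 1.28 larger in KO, or 2.44-fold.

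**Figure D2:**
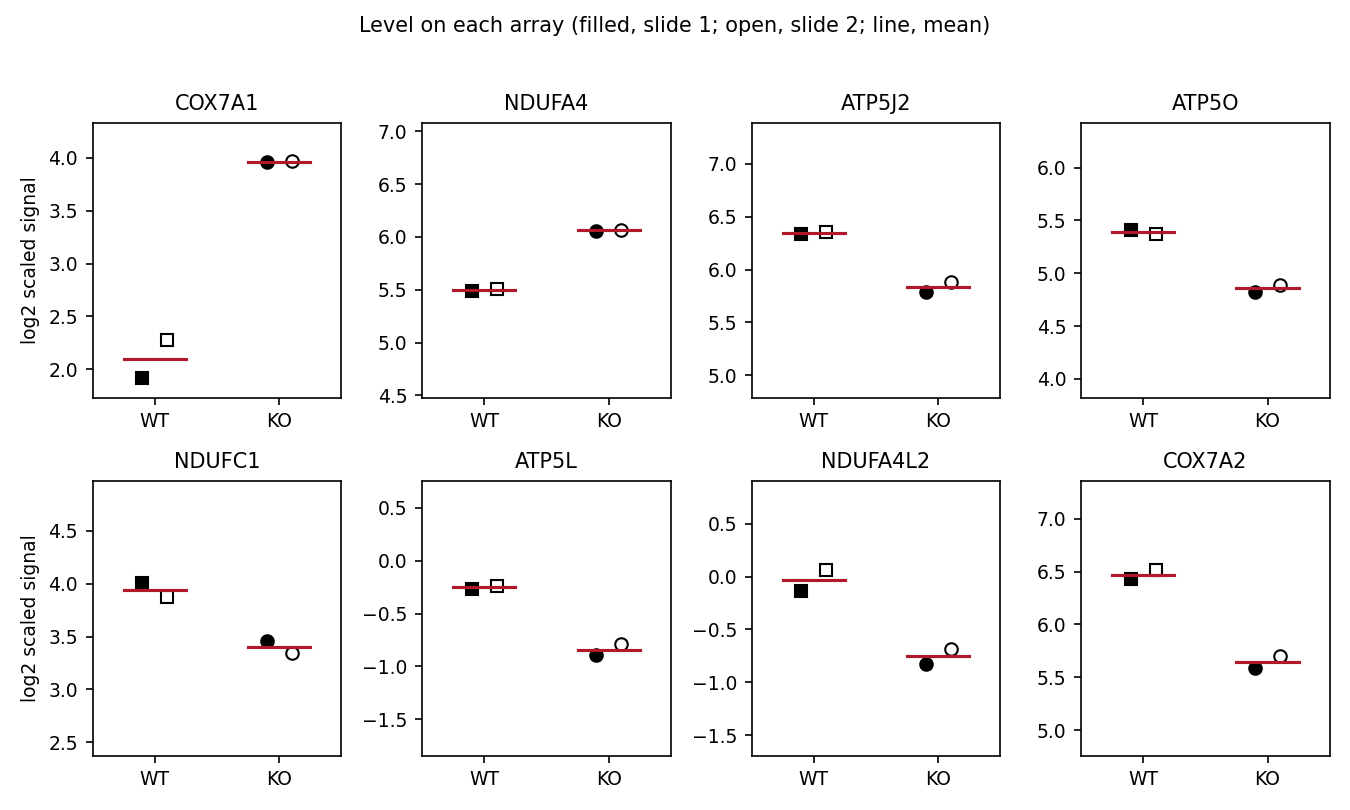
Level on each array (y axis, log2 signal minus the 75th percentile of the array) of the 8 called genes in WT and KO thymus (x axis). Each point is 1 array, filled for slide 1 and open for slide 2, the line is the mean of 2 arrays, and every panel spans the same height. The WT and KO points of each gene lie apart, and the gap is largest for COX7A1.

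The other subunits of complex IV were not called by their brightest probe. COX5B, COX6A1, COX6C and COX7C, parts of the enzyme in most tissues, had differences of -0.26, -0.32, -0.41 and -0.14. COX6B (COX6B1 in current usage) was at 5.09 and 5.33 in KO and at 5.80 and 5.58 in WT, a difference of -0.48 (SE 0.18, adjusted p = 0.095 in limma), and its second probe was called lower at -0.74. COX6B is thus a gene whose probes disagree in their call but not in their sign.

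COX8H (COX8B in current usage), the heart and muscle isoform of subunit 8, was dim. It was at -5.83 and -7.04 on the KO arrays and at -5.43 and -4.96 on the WT arrays, and only 1 of the 2 KO arrays was well above background. The difference of -1.24 was the most negative of all members and also the least precise (SE 0.46, adjusted p = 0.088 in limma). A second probe of COX8H was not tested for lack of signal. It was the only member called lower without KO replicate 1, at -1.84, but was not called without KO replicate 2, at -0.63. COX8H was tested because both WT arrays were well above background. With KO values this dim and no call, whether the muscle isoforms of subunits 7A and 8 moved together was not settled.

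COX7A1 and COX8H are known from muscle, and the thymus can carry muscle cells of its own or muscle from the tissue around it. Of 20 muscle markers tested, 10 were lower in KO, 1 was higher and 9 were not called. Their summed linear signal was 57.3 and 54.1 on the KO arrays and 82.4 and 100.3 on the WT arrays. ACTA1 and ACTC1, the brightest of these markers and called lower at -0.71 and -0.65, weigh most in this sum. The fast muscle myosins MYH1 and MYH4 stood apart on WT replicate 2, with MYH1 at 2.33 against -5.81 to -3.76 on the other 3 arrays, although both were well above background on all 4 arrays and the fast myosin MYH2 did not stand apart there. Without that array the difference of COX7A1 was 1.69. COX7A1 is also known from brown fat. Of 11 adipocyte markers 6 were higher in KO and 0 lower, with a summed signal of 48.1 and 140.6 on the KO arrays and 24.3 and 10.4 on the WT arrays. FABP4, the brightest of these markers, weighs most in that sum, at 5.08 and 6.65 on the KO arrays and 3.59 and 2.45 on the WT arrays. The sum was higher on KO replicate 2 than on KO replicate 1, and COX7A1 differed by 0.01 between these arrays. The part of either cell type in the COX7A1 difference was not tested.

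Complex V makes ATP, and 8 of its genes were measured, of which 3 were called lower and 0 higher, with a median of -0.31. The called genes belong to the membrane part and the stalk. ATP5J2 (ATP5MF, subunit f) was at 5.78 and 5.88 in KO and at 6.36 and 6.34 in WT. ATP5L (ATP5MG, subunit g) was at -0.89 and -0.78 in KO and at -0.23 and -0.26 in WT. ATP5O (ATP5PO), the subunit of the stalk that confers sensitivity to oligomycin, was at 4.82 and 4.89 in KO and at 5.37 and 5.41 in WT. All KO values of these genes lay below all WT values, with differences of -0.51 (SE 0.15), -0.59 (SE 0.15) and -0.53 (SE 0.15) and adjusted p-values in limma of 0.0499, 0.036 and 0.045. The call of ATP5J2 was therefore at the threshold itself. With slide as a block ATP5J2 and ATP5O were no longer called (adjusted p = 0.064 and 0.061 in limma), while ATP5L was (adjusted p = 0.048).

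The catalytic head is represented by ATP5A1 (ATP5F1A, subunit alpha), the member with the most probes. Its brightest probe was at 6.51 and 6.57 in KO and at 6.85 and 6.82 in WT, a difference of -0.30 (SE 0.15, adjusted p = 0.17 in limma). All 14 probes were negative, between -0.58 and -0.30, and 4 of them were called lower. All 10 probes of ATP5O were likewise negative, between -0.79 and -0.51, with 6 called. These probes read the same RNA in the same samples and are not replicates of the condition. ATP5E (ATP5F1E, subunit epsilon) had a pair of probes that differed in size, at -0.10 for the brightest and -0.57 for the other, and neither was called.

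ATP5G1 and ATP5G3 (ATP5MC1 and ATP5MC3) encode the same mature protein, the subunit c that forms the rotating ring, from separate genes. ATP5G1 was at 5.39 and 5.62 in KO and at 5.38 and 5.22 in WT, and ATP5G3 was at 6.36 and 6.35 in KO and at 6.73 and 6.65 in WT. Neither was called, with differences of 0.20 (95% interval -0.27 to 0.68) and -0.33 (95% interval -0.74 to 0.07). Within arrays, ATP5G1 minus ATP5G3 was 0.53 higher in KO (1.45-fold). ATP5I (ATP5ME, subunit e) had overlapping groups and a difference of -0.07.

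**Figure D3:**
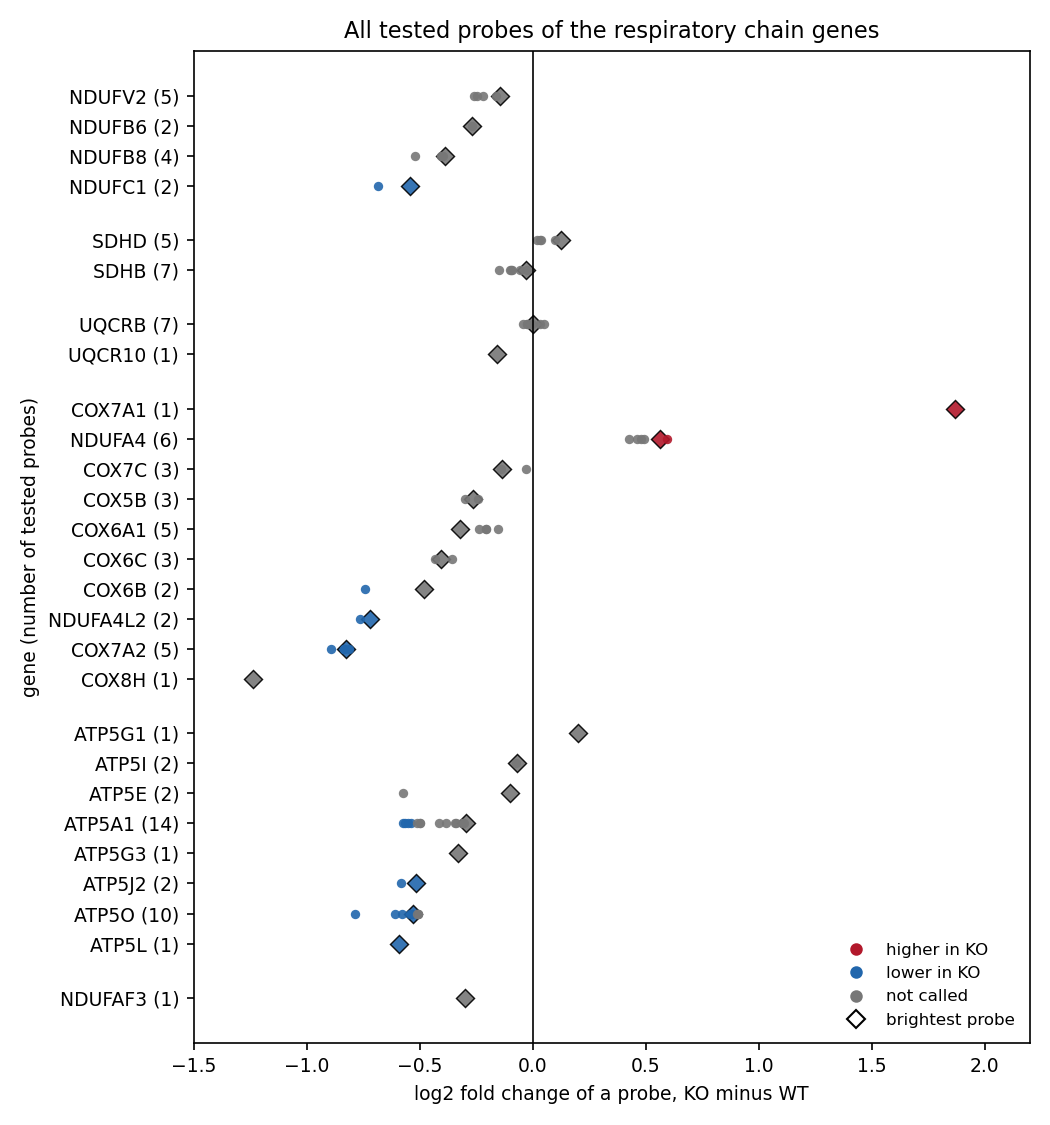
Difference between KO and WT (log2, KO minus WT, x axis) of each of the 98 tested probes, by gene (y axis, with the number of tested probes). Colours give the call of each probe, and diamonds are the brightest probe of each gene, which stands for the gene. The probes of COX7A2 fall within -0.89 to -0.81, and those of UQCRB within -0.04 to 0.05.

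Complex I, the entry for electrons of NADH, had 4 subunits measured, 1 of them called. NDUFC1, an accessory subunit of the membrane arm, was at 3.46 and 3.35 in KO and at 3.88 and 4.01 in WT. Its KO values lay below its WT values, at -0.54 (SE 0.16, adjusted p = 0.049 in limma), and its second probe was also called lower, at -0.69. With slide as a block its brightest probe was no longer called (adjusted p = 0.056 in limma). NDUFB8 and NDUFB6, accessory subunits of the same arm, were at -0.39 and -0.27 and were not called, as was NDUFV2, an iron-sulfur subunit of the arm that binds NADH, at -0.15. NDUFAF3, which is not a subunit but an assembly factor of complex I, was at -0.30 (SE 0.16, adjusted p = 0.19 in limma).

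Complexes II and III had no called probe. SDHB, the iron-sulfur subunit of succinate dehydrogenase, was at 3.85 and 3.88 in KO and at 3.88 and 3.91 in WT. SDHD, its membrane anchor, was at 3.13 and 3.11 in KO and at 2.91 and 3.08 in WT. UQCRB, which binds near the quinone site of complex III, was at 4.48 and 4.55 in both genotypes. The intervals bound any difference of these genes on this scale, namely -0.43 to 0.37 for SDHB, -0.30 to 0.55 for SDHD and -0.41 to 0.41 for UQCRB. The 7 probes of SDHB spanned -0.15 to -0.03, the 5 probes of SDHD 0.02 to 0.12 and the 7 probes of UQCRB -0.04 to 0.05. UQCR10, a small subunit of complex III with 1 probe, was at -0.16. The sign of these small differences followed the scaling. The median of complex II was 0.05 and turned to -0.22 with scaling to the median of each array, and that of complex III was -0.08 and turned to 0.13 with quantile normalization.

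The calls of the members rested on few arrays, and COX7A1 kept its call under the most settings. It was called in 14 of 16 alternative settings, with differences from 1.60 to 2.05. The exceptions were the t-test with Bonferroni correction that the study's methods name, and the same t-test with Benjamini-Hochberg adjustment. With Bonferroni correction 0.0% of all named genes were called. With Benjamini-Hochberg adjustment 3.2% were called higher and 3.4% lower, so these tests could say little of any member. COX7A2 was called in 11 of 16, NDUFA4L2 and ATP5L in 10, NDUFA4 in 8, NDUFC1 and ATP5O in 5 and ATP5J2 in 4, all with the same sign in all 16. Some settings also called fewer of all named genes. The share called lower was 16.5% without a filter on dim probes and 14.7% with replicate number as a block, beside 22.7% as reported. Without KO replicate 1 the median difference of the members was -0.24, and without KO replicate 2 it was -0.33. Without WT replicate 1 it was -0.28, and without WT replicate 2 it was -0.27.

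**Figure D4:**
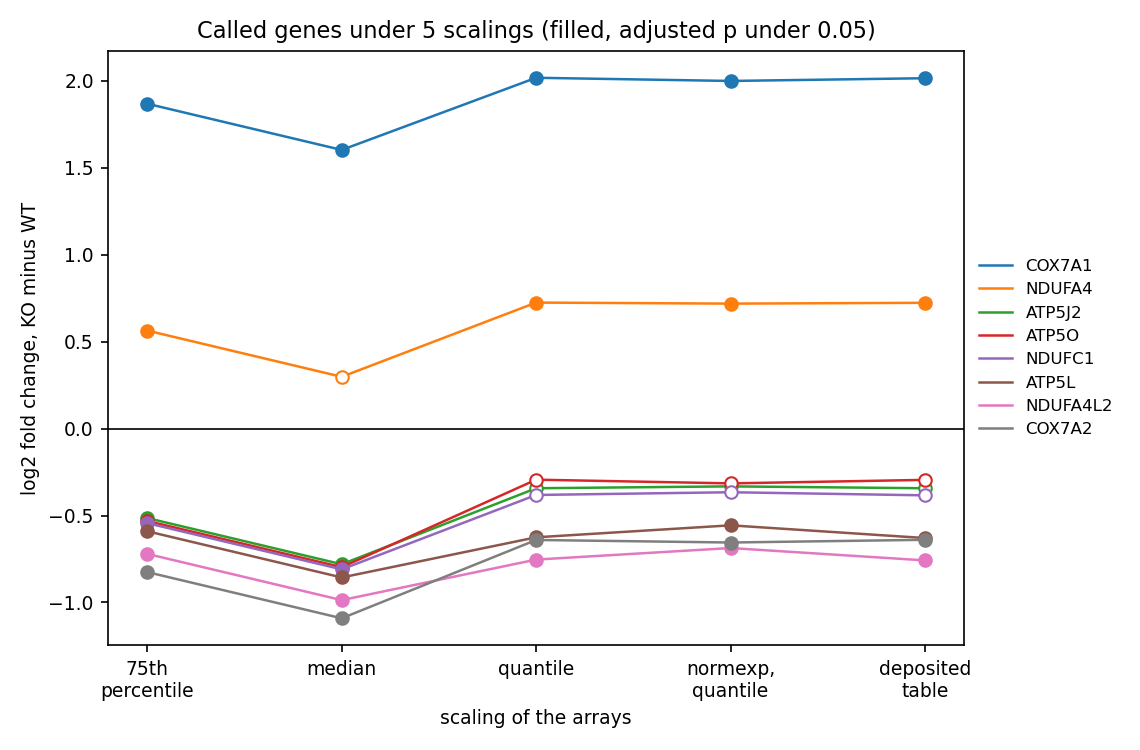
Difference between KO and WT (log2, KO minus WT, y axis) of the 8 called genes under 5 ways of scaling the arrays (x axis). Filled points had an adjusted p under 0.05 in limma and open points did not. COX7A1, COX7A2, NDUFA4L2 and ATP5L were called under all 5, NDUFA4 was not called with scaling to the median, and NDUFC1, ATP5J2 and ATP5O were not called under the 3 settings with quantile normalized values, 1 of which also had normexp background correction.

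Genes that serve the chain were compared from lists of the same pathway, and many listed genes had no named probe. Those with 1 were 5 of 17 carriers, 9 of 17 genes of the citric acid cycle and pyruvate dehydrogenase and 10 of 15 of fatty acid oxidation. For regulators of mitochondrial biogenesis they were 3 of 16, and for mitochondrial ribosomal proteins 7 of 77. For import and the outer membrane they were 7 of 29, and for redox defence and uncoupling 6 of 10. Of 44 further assembly factors listed, 3 had a named probe, and all 3 were called lower, beside 22.7% of all named genes. With slide as a block 2 of them were called. Without a filter on dim probes, or with replicate number as a block, 1 was called. COX10, which makes the heme of cytochrome c oxidase, was at -1.15, PET100, an assembly factor of that enzyme, at -0.74, and TACO1, a translational activator of a mitochondrial subunit of it, at -0.64. COX10 was at -3.63 and -3.52 on the KO arrays and at -2.61 and -2.24 on the WT arrays, without overlap. Of 5 carriers, CYCS (cytochrome c) and SLC25A3 (the phosphate carrier) were called lower at -0.77 and -0.61, and ETFA, which brings electrons from fatty acid oxidation to the chain, was called higher at 0.76. The other 2, SLC25A6 and ETFB, were at -0.41 and 0.01.

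The citric acid cycle and pyruvate dehydrogenase resembled the chain itself. None of the 9 genes tested was called, all 9 were negative, and the median was -0.36 with a range of -0.44 to -0.02. CS, citrate synthase, was at 4.33 and 4.31 in KO and at 4.74 and 4.74 in WT (-0.43, adjusted p = 0.075 in limma). With scaling to the median of each array 6 of the 9 were called lower, beside 34.3% of all named genes. With quantile normalization 0 were called, 1 was positive and the median was -0.20. The 7 mitochondrial ribosomal proteins tested were also all negative, with a median of -0.39 and with MRPL16 alone called, at -1.13. With scaling to the median 6 of these 7 were called. With quantile normalization 1 was called, 1 was positive and the median was -0.30.

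Fatty acid oxidation was mixed. Of 10 genes, ECI2 (2.45), an isomerase for unsaturated fatty acids, and HADH (0.68) were called higher, while CPT2 (-0.95), ACADS (-0.88) and ACADL (-0.60) were called lower. ECI2 was dim, at -1.32 and -1.58 in KO and at -4.08 and -3.72 in WT, but without overlap. Among 3 regulators of mitochondrial biogenesis, PPARGC1A, a coactivator that drives it, was called higher, and TFAM and TFB1M, which serve the transcription of mitochondrial DNA, were called lower. PPARGC1A was at 0.04 and -0.35 in KO and at -1.98 and -2.77 in WT (2.22, SE 0.33, adjusted p = 0.0089 in limma), and TFAM was at 0.95 and 1.08 in KO and at 1.82 and 2.16 in WT (-0.97, SE 0.19, adjusted p = 0.018 in limma). The coactivator and these factors thus lay on opposite sides of 0.

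Of 7 genes of import and the outer membrane, TOMM34 alone was called, lower at -1.39. Of 6 genes of redox defence and uncoupling, UCP3, an uncoupling protein of muscle and brown fat, was called higher at 2.67, and the peroxiredoxins PRDX3 and PRDX5 were called lower at -1.09 and -0.97. UCP3 differed between the KO arrays, at -0.20 and 1.55, as the adipocyte markers did, and was at -1.40 and -2.58 on the WT arrays. The part of adipocytes in this difference was not tested.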

How the data were processed

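The intensity values came from output files of Agilent Feature Extraction (version 11.0.1.1 per the file headers) that the authors deposited, with 1 array per thymus sample and 1 dye, Cy3. The processed signal is the brightness of a spot after background subtraction, on a linear scale and not normalized between arrays. The authors also deposited a log2 table, of which 27970 probes were used here, whose columns hold almost the same sorted values, as quantile normalization gives, and correlate with the log2 scanner signal of their array (Pearson's r of at least 0.9998). The dye of a second channel named in the methods was not found in the files, each of which holds 1 channel.

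Here, control spots and outlier spots were dropped (6 of 43603 probes lost). Signals were log2 transformed, centred on the 75th percentile of their array and averaged over the spots of a probe. A probe was tested if both arrays of either genotype were well above background, and the 31963 such probes were fitted with lmFit and eBayes of limma 3.58.1 in R 4.3.3, with Benjamini-Hochberg adjustment. Tables and plots used Python 3.11.15, pandas 2.3.3 and matplotlib 3.10.9. The fit was tested on simulated data. A RefSeq accession named 6686 probes of 3020 genes through RefSeq gene names of assembly Sscrofa11.1, with no coordinates used. A gene stands by its tested probe with the highest mean signal. Probe and promoter sequences were not analysed here, so cross-hybridisation between isoforms was not tested and the planned search for promoter motifs was not run.

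Groups and replicate numbers were taken from the sample labels. The text names members called at 2-fold or more, the members with the largest rise and fall in each complex, isoform families, members whose probes differ and members near background, and adds the others for completeness. Members and lists were chosen with earlier results of these data known. The 16 alternatives were other scalings, background corrections, filters, blocks, tests, probe summaries and left out arrays. Same-numbered samples did not deviate together (r = -0.29 over the probes tested).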

Additional observations from a re-analysis of the deposited data

How the results depend on the processing

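The median difference of the 27 genes stayed negative under all 16 alternatives, and IL2RG stayed lower in KO under all of them. The medians that moved were -0.56 with scaling to the median of each array, -0.12 with quantile normalization, -0.11 with normexp background correction followed by quantile normalization (run on median spot signals) and -0.10 in the deposited log2 table, beside -0.30. Counts of genes called higher, 2 as reported, were 1 with scaling to the median, without a filter on dim probes, with slide as a block and with the replicate block. They were 3 with normexp. Over all named genes the share called higher was 30.0% as reported and 25.0% to 30.8% under these settings. By the methods' t-test 0 members were called higher with Bonferroni correction and 1 with Benjamini-Hochberg adjustment. Over all named genes that t-test called 0.0% with Bonferroni correction. With Benjamini-Hochberg adjustment it called 3.2% higher and 3.4% lower, so its low counts are not particular to the members. Counts of genes called lower, 6 as reported, were 13 with scaling to the median and 3 with quantile normalization, with normexp and in the deposited table. They were 1 without a filter, 4 with slide as a block, 9 in limma with an intensity trend and 8 with the mean of all probes of a gene. With the replicate block and by both t-tests they were 0. Over all named genes the share called lower moved too. It was 22.7% as reported, 34.3% with scaling to the median, 22.2% with quantile normalization, 23.5% with normexp and 23.0% in the deposited table. It was 16.5% without a filter, 22.1% with slide as a block and 14.7% with the replicate block. With an intensity trend it was 26.7%, and with the mean of all probes 25.6%. At 2-fold or more, 2 genes were lower with scaling to the median and 1 with slide as a block, and 0 were higher by both t-tests. IL2RG, at -3.41, was not called by the t-tests (adjusted p = 1.0 and 0.061, against limma). With 1 array removed at a time there were 1 to 2 genes higher, 0 to 5 lower, 0 to 1 lower at 2-fold or more and medians of -0.33 to -0.24, the lowest counts coming without KO replicate 1 or KO replicate 2. A lone array was then assumed to vary like the other group. Replicate numbers did not pair the samples, since same-numbered arrays deviated in opposite directions. Crossing the numbers, a choice made after seeing the data, is the same fit as slide as a block, with 1 gene higher and 4 lower. Over the fold changes of the 27 genes under all alternatives, 354 kept their side of the threshold, 61 lost their call and 15 gained one, and the sign of a called gene never turned. The cause of these shifts was not tested. Signal over background limits COX8H, which was near background in KO.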
